A study of Homo sapiens with 47 samples.

Results

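Collagens, laminins and integrins were followed as 3 gene families of extracellular matrix and matrix receptors in circulating tumor cells (CTCs). The members are the protein-coding genes whose GENCODE symbols follow the patterns for collagen alpha chains (COL, a number, A and a number), for laminin alpha, beta and gamma chains (LAMA, LAMB and LAMC with a number) and for integrin alpha and beta chains (ITGA and ITGB). This gave 67 of the 25739 genes with values, of which 35 are collagens, 10 laminins and 22 integrins. Another 15 annotated genes with such symbols were not analysed here, among them COL3A1, COL5A2, ITGAL and ITGB7. Single-cell RNA-seq values were available for 37 CTCs and 6 cultured cells of LM2, a GFP-labeled derivative of the human triple-negative breast cancer line MDA-MB-231 that metastasizes in mice. All CTCs descend from this 1 line, injected into a mammary fat pad of young adult immunodeficient NSG mice, from which it spread spontaneously. CTCs were enriched by size from terminal blood, with CD45 as a stain for negative selection, and picked singly by GFP. There were 2 CTCs from mouse 5541, 4 from 5542, 10 from 5545, 17 from 5546 and 4 from 5549. No batch label sets any of the 43 cells apart, which does not show that they were processed together. The mouse was taken as the replicate of the CTCs, and the 6 LM2 cells from tissue culture are 1 culture, which has no replicate.

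Collagens are matrix proteins in which 3 alpha chains wind into a triple helix, and different chain sets build fibrils, the networks of basement membranes or beaded filaments. Laminins join 1 alpha, 1 beta and 1 gamma chain into a cross-shaped molecule of basement membranes and are named by the numbers of these chains, so that laminin-511 holds the chains of LAMA5, LAMB1 and LAMC1. Integrins are receptors of 1 alpha and 1 beta chain that bind such ligands outside the cell and adaptors of the actin cytoskeleton inside it. In mammary carcinoma they are known for roles in attachment, migration and survival of cells that leave their matrix.

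Reads on genes ranged from 469614 to 2041333 per CTC and from 776949 to 1186197 per cultured cell. Normalized counts are reads on a gene after scaling by size factors, and any value above 0 was taken as detection. Genes detected ranged from 2313 to 12299 per CTC and from 7369 to 13679 per cultured cell, and, since the protocol adds no molecular identifiers, intervals given for shares of cells cover counting error only. Normalized counts summed over all genes were higher in culture, with a mean of 1376940 per cultured cell and means from 763780 to 911718 per CTC of a mouse. Over the 9164 genes with a mean of at least 8 in CTCs or culture, the median log2 ratio of CTCs to culture was -1.20, and after every cell was scaled to a total of 1000000 (CPM) it was -0.45 (8777 genes). Ratios of members are to be read against these medians. VIM, a mesenchymal filament gene, was detected in 37 of 37 CTCs and in 6 of 6 cultured cells. It is 1 of 5 genes listed as markers of this line, and averaged 8972 over mice and 5549 in culture. The other listed genes averaged less in CTCs than in culture, with AXL at 1915 and 4439, CAV1 at 821 and 904, CD44 at 397 and 535 and EGFR at 50.1 and 97.2. The summed level of 5 erythroid marker genes ranged from 0 to 15558 normalized counts in CTCs and was 0 in every cultured cell. Mouse 5546 has 9 libraries named with c and 8 named with s, a difference left unexplained in the labels, and genes detected were 7782 to 12299 with c and 4656 to 7538 with s.

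Promoter sequence is shown for 3 members on which the chain results below turn. LAMA3 and LAMB3 encode an alpha and a beta chain of laminins that were detected in very different shares of CTCs, and COL6A2 belongs to the pair of chains with the highest correlation among partners. The RefSeq promoter table for GRCh38.p14 held 49 of the 67 members, and COL6A1 was not among them. The 250 bases before the start site are given, on the strand of the gene, at chr18:23872770-23873019 (plus strand) for LAMA3, chr1:209652426-209652675 (minus strand) for LAMB3 and chr21:46097862-46098111 (plus strand) for COL6A2. For LAMA3 this start lies 183567 bases inside the gene as GENCODE draws it. Capitals mark matches, on either strand, to the AP-1 site TGANTCA, the GC box GGGCGG and the TATA box TATAAA, and no match overlaps a match to another motif.
LAMA3: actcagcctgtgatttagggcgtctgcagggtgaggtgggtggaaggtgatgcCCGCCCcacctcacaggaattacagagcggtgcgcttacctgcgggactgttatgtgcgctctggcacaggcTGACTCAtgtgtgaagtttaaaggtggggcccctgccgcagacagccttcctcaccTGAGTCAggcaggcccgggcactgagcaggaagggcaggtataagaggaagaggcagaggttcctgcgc
LAMB3: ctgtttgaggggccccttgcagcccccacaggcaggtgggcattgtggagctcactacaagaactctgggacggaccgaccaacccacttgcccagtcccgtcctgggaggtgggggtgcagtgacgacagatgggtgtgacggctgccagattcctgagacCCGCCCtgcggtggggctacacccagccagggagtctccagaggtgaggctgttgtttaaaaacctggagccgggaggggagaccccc
COL6A2: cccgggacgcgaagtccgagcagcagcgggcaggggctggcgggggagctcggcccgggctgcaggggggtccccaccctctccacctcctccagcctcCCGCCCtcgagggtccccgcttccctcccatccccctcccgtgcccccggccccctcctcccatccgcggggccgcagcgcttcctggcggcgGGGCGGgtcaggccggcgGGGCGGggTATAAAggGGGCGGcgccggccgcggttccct
The AP-1 motif occurs in 6.57% of 35114 promoters of this length, the GC box in 42.6% and the TATA box in 10.7%. LAMA3 has AP-1 matches that end 119 and 63 bases before its start, whereas LAMB3 has none in this window. LAMA3 and LAMB3 each hold 1 GC box. COL6A2 has 4 GC boxes and a TATA box that begins 32 bases before its start.

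Most of the reads of each family came from a few members. Of the 67 members, 65 were detected in at least 1 of 37 CTCs and 46 in at least 1 of 6 cultured cells. These counts cover unequal numbers of cells and are not compared. In at least 30% of CTCs, 34 members were detected. The 34 common members are 13 of the 35 collagens, 8 of the 10 laminins and 13 of the 22 integrins. At the other end, 29 members were detected in only 1 to 5 CTCs, 19 of them collagens, and COL11A2 and COL16A1 were detected in none, where 0 of 37 allows a share of up to 8.11%. A CTC held between 4 and 16 collagens (median 9), between 1 and 9 laminins (median 6) and between 4 and 16 integrins (median 9). The medians in culture were higher, at 13.5 collagens, 7.5 laminins and 10.5 integrins per cell. CTC 5545-6 held the fewest collagens and laminins, and the number of members per CTC went with the number of genes detected (Spearman's ρ of 0.59 for collagens, 0.64 for laminins and 0.78 for integrins over 37 CTCs that share library and depth). In mouse 5546 the libraries with c held 11 to 16 integrins and those with s 4 to 12.

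**Figure D1:**
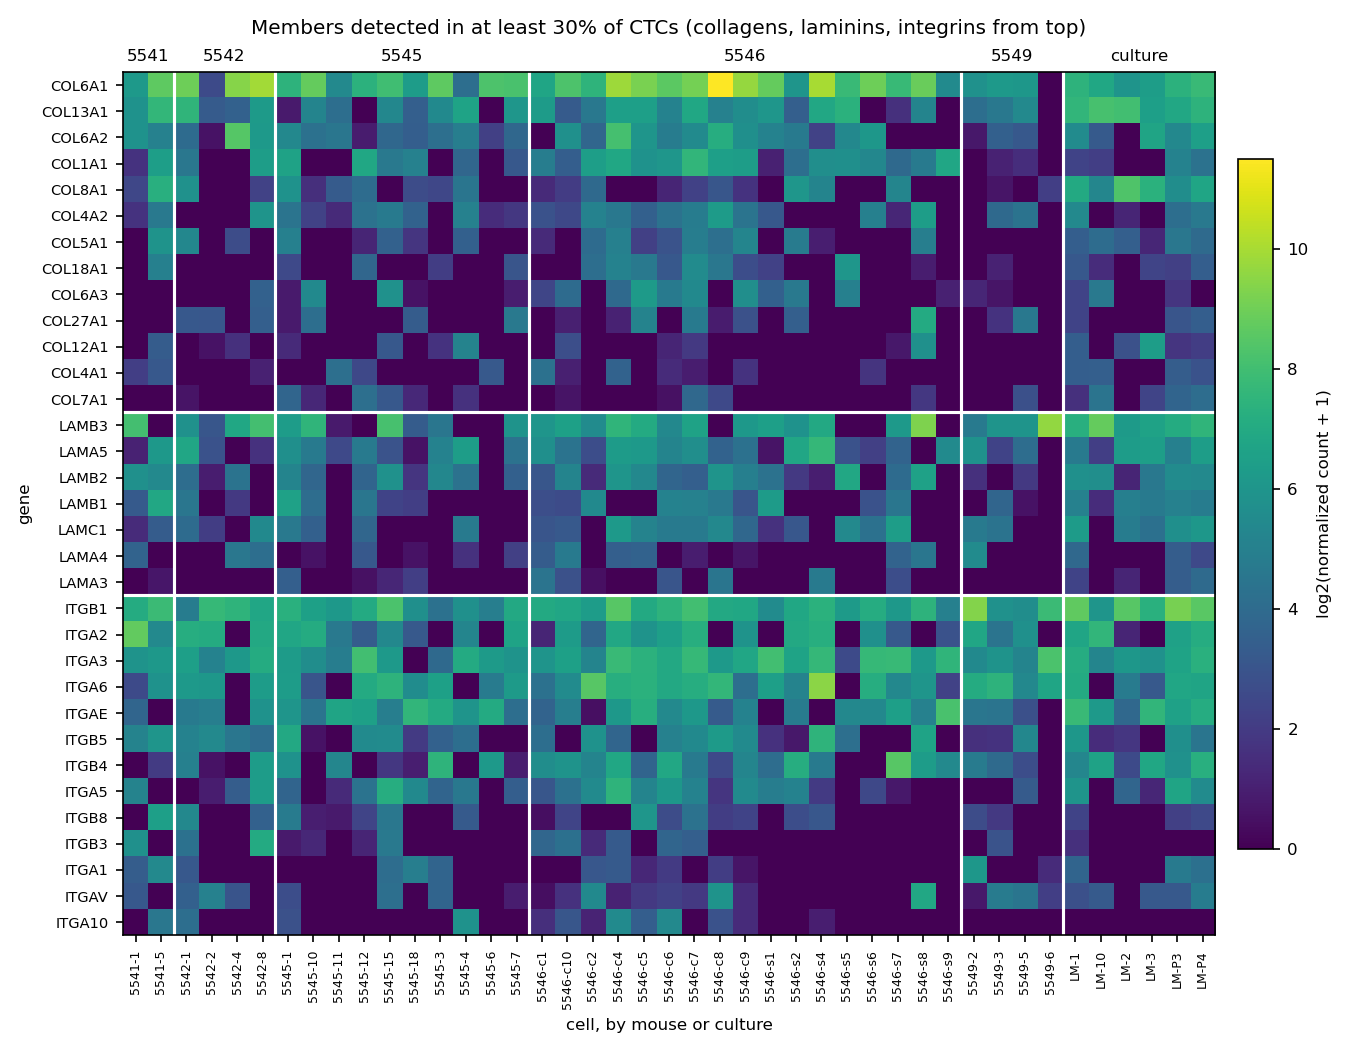
Heat map of log2(normalized count + 1) for 33 of the 34 members detected in at least 30% of CTCs, with genes in rows (13 collagens, 7 laminins and 13 integrins from top) and cells in columns by mouse and culture. COL6A1, ITGB1 and ITGA3 form nearly unbroken rows, while most other members are at 0 in many CTCs.

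The summed level of a family differed more between mice for collagens than for integrins. Collagens summed to 604 normalized counts per CTC in mouse 5541, 799 in 5542, 360 in 5545, 845 in 5546 and 98.2 in 5549, with a mean of 541 ± 313 (SD, n = 5 mice) beside 598 in culture. Laminins summed to 360, 523, 176, 253 and 527 in the same order, with a mean of 368 ± 157 (SD, n = 5 mice) beside 446 in culture. For integrins the sums were 694, 547, 483, 682 and 593, with a mean of 600 ± 89.8 (SD, n = 5 mice) beside 898 in culture. Mouse 5546 was highest for collagens, but without CTC 5546-c8 its mean was 687 and mouse 5542 was highest. Mouse 5549 was lowest for collagens. Its rank as highest for laminins rested on CTC 5549-6, without which its mean was 171 and the lowest of the 5. The log2 ratio of CTCs to culture was -0.14 for collagens, -0.28 for laminins and -0.58 for integrins, and it turned to 0.52, 0.38 and 0.22 with CPM, so no direction was given to any family. As a share of all normalized counts of a cell, collagens made up 0.0634% in CTCs and 0.0443% in culture, laminins 0.0425% and 0.0328%, and integrins 0.0756% and 0.0647%.

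Type VI collagen, which forms beaded filaments around cells, held 69.0% of the summed collagen level of CTCs and 31.8% of that of cultured cells. COL6A1 (ENSG00000142156, GRCh38, chr21:45981770-46005050), its alpha 1 chain, was detected in 36 of 37 CTCs and was the highest collagen per kb of transcript in 32 of them. Its normalized counts were 73.7 and 406 in the CTCs of mouse 5541 and ranged from 5.07 to 963 with a median of 581 in 5542, from 17.0 to 441 with a median of 210.8 in 5545, from 44.2 to 2896 with a median of 438 in 5546 and from 0 to 73.5 with a median of 60.4 in 5549. The cultured cells ranged from 60.2 to 220 with a median of 141. All 4 CTCs of mouse 5549 lay below the median of the culture, and the medians of mice 5542 and 5546 lay above its highest cell, with 5546-c8 highest of all CTCs. COL6A2 (chr21:46098112-46132848), the alpha 2 chain, was detected in 32 CTCs at a mean of 45.3 ± 40.8 normalized counts (SD, n = 5 mice) and in 5 cultured cells at a mean of 47.9. Without CTC 5542-4 its mean over mice was 29.2. The alpha 3 chain, COL6A3, was detected in 19 CTCs at a mean of 6.09.

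The other common collagens differ in kind. COL13A1 (chr10:69801880-69964275), a transmembrane collagen of adhesion sites, was second per kb of canonical transcript in CTCs with 19.1 normalized counts per kb and first in culture with 58.7. Per kb of exon union, which counts every annotated exon base once, it ranked 3 in CTCs at 5.22, below COL6A2 at 8.50. COL13A1 ranged from 0 to 194 in CTCs with a median of 35.0, and from 88.9 to 283 in culture. The ranges thus overlapped although the mean of each of the 5 mice was below the culture mean. COL8A1 (chr3:99638475-99799226), a short-chain network collagen of vessel walls, was detected in 23 CTCs, where the mouse means were 77.4, 14.8, 11.4, 10.1 and 0.973, and in all 6 cultured cells with 37.9 to 322. COL1A1 (chr17:50184101-50201632), the main chain of fibrillar type I collagen, was detected in 29 CTCs with mouse means of 44.6, 26.8, 29.1, 60.7 and 0.745, and in 4 of 6 cultured cells, which ranged from 0 to 33.2. All 17 CTCs of mouse 5546 held COL1A1, whereas 2 of 4 CTCs of mouse 5549 did, at values of at most 1.86. COL4A2 (chr13:110305812-110513209), a chain of basement membrane type IV collagen, was detected in 27 CTCs at 13.8 ± 4.47 (SD, n = 5 mice) and averaged 14.0 in culture.

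Among laminins, the beta 3 chain stood highest. LAMB3 (ENSG00000196878, chr1:209614870-209652425) was detected in 29 CTCs at 32.0 normalized counts per kb and led the family per kb in 21 of 37. LAMB3 ranged from 0 to 793 in CTCs with a median of 61.7, and from 75.3 to 440 in culture with a median of 144. The highest CTC was 5549-6, in which COL6A1, COL6A2 and COL13A1 were at 0. This CTC also had the highest erythroid marker sum, 15558, whose part in these values was not tested. By mouse, LAMB3 averaged 134 in 5541, 112 in 5542, 64.0 in 5545, 98.5 in 5546 and 235 in 5549, beside 180.2 in culture, and on the scale of size factors 4 of the 5 lay below culture. Without CTC 5549-6 the mean of mouse 5549 was 49.4, and all 5 lay below.

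The laminins that follow were lower per kb than LAMB3. LAMA5 (chr20:62307955-62367312), the alpha chain of laminin-511 and laminin-521, was the most common alpha chain and was detected in 33 CTCs at 30.5 ± 8.97 normalized counts (SD, n = 5 mice), with 51.8 in culture. Exons of LAMA5 share 244 bases with ADRM1 and those of LAMB1 300 bases with DLD, both on the opposite strand, and reads were counted without strand. LAMB2 was detected in 30 CTCs at 21.4 ± 18.2, LAMB1 in 21 at 20.5 ± 24.7 and LAMC1, the gamma chain of most laminins, in 24 at 12.4 ± 6.77 (SD, n = 5 mice each). LAMA3, an alpha chain of epithelial basement membranes, was detected in 12 CTCs, none of them from mouse 5542 or 5549, at values from 0.399 to 25.8. In culture it was detected in 4 of 6 cells, with values from 1.25 to 14.5. Per kb it averaged 0.13 in CTCs, beside 32.0 for LAMB3.

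ITGB1 (ENSG00000150093, chr10:32887273-33005792), the beta chain shared by most matrix-binding integrins, was the single member detected in all 37 CTCs. It ranged from 18.7 to 655 normalized counts in CTCs with a median of 121.3, and from 63.8 to 560 in culture with a median of 371. The mouse means were 182 in 5541, 132 in 5542, 102 in 5545, 134 in 5546 and 247 in 5549, each below the culture mean of 323, while the cells of both groups overlapped. ITGB5, the beta chain of a vitronectin receptor, was detected in 28 CTCs at 29.2 ± 13.9 (SD, n = 5 mice) and averaged 24.2 in culture. ITGB4, which pairs with ITGA6 in hemidesmosomes, was detected in 29 CTCs with mouse means from 1.51 to 65.5 and averaged 77.5 in culture.

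The alpha chains of laminin receptors, ITGA3 and ITGA6, made up 29.0% of the integrin level of CTCs with ITGA7. ITGA3 (chr17:50055968-50090481) was detected in 36 CTCs with mouse means of 64.3, 81.6, 76.5, 137 and 110.7, and averaged 92.3 in culture. Its mean was 94.0 ± 29.5 (SD, n = 5 mice). ITGA6 (chr2:172427354-172506459) was detected in 33 CTCs at 79.8 ± 43.1 and averaged 63.4 in culture. ITGA2 (chr5:52989340-53094779), an alpha chain of collagen receptors, was detected in 29 CTCs at 95.5 ± 79.1 (SD, n = 5 mice) and averaged 88.1 in culture, with its highest value of 421.3 in CTC 5541-1, without which its mean over mice was 57.5. ITGA1, another collagen-binding chain, was detected in 14 CTCs, and its exons share 499 bases with PELO on the same strand, so its reads are uncertain. ITGA10, also a collagen-binding chain, was detected in 13 CTCs at 0.956 to 57.3 and in no cultured cell. Its mean of 5.77 over mice was at least 7.58-fold higher than a culture with 3 reads over the 6 cells would give. This fold did not hold in every mouse, since the mouse means were 11.5 in 5541, 4.25 in 5542, 6.36 in 5545, 6.78 in 5546 and 0 in 5549. Of the 13 CTCs, 9 came from mouse 5546 and 1 from mouse 5541. The level of ITGA10 went with the number of genes detected (Spearman's ρ of 0.50 over 37 CTCs).

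Chains known from leukocytes and platelets were mostly rare. ITGAE, which marks T cells of epithelia, was the exception and was detected in 32 CTCs at 36.9 ± 32.2 (SD, n = 5 mice) and in all 6 cultured cells at a mean of 122. Its exons share 427 bases with HASPIN on the opposite strand. ITGAM was detected in 5 CTCs, ITGA2B in 4, and ITGA4, ITGAD and ITGAX in 2 each, at values of at most 14.0. Of these, ITGA2B alone was detected in culture, in 1 cell.

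ITGB2 (ENSG00000160255, chr21:44885953-44931989), the common beta chain of leukocyte integrins, was the single member that differed from culture by a set rule of size. The rule takes a gene whose mean in the CTCs of each of the 5 mice differs at least 4-fold, in 1 direction, from the culture mean after 1 is added to both, where the larger mean is at least 8. Its values in culture were 11.9 in LM-1, 20.7 in LM-10, 86.6 in LM-2, 115 in LM-3, 41.5 in LM-P3 and 17.8 in LM-P4. In CTCs it was detected in 7 of 37 (18.9%, exact 95% interval 7.96 to 35.2%), with 7.43 in 5542-1, 17.7 in 5546-c4, 1.66 in 5546-c6, 7.85 in 5546-c9, 14.3 in 5546-s4, 0.686 in 5546-s7 and 15.8 in 5549-5. All 12 CTCs of mice 5541 and 5545 were at 0, and 3 CTCs lay above the lowest cultured cell. The mean of 1.66 ± 1.69 (SD, n = 5 mice) was 18.8-fold below the 48.9 of culture on the scale of value plus 1. None of the 6 cultured cells held ITGAM, ITGAX or ITGAD. ITGAM with ITGB2 was found in 4 of 37 CTCs (10.8%), and 2 of these also held ITGAD. Shares this small can be missed in 6 cells, so no difference from culture is read here. Of 5 leukocyte marker genes with values, PTPRC, TYROBP and SPI1 were at 0 in all cultured cells, whose summed leukocyte level was at most 7.96. In CTCs all 5 were detected, and their sum ranged from 0 to 1256. Of the 7 CTCs with ITGB2, 6 had reads of these markers, as had 21 of the 30 CTCs without ITGB2. The highest leukocyte sum was 1256 with ITGB2, in 5546-s4, and 258 without. Neutrophil markers were found in 7 of 7 and 23 of 30, with highest sums of 352 with ITGB2 and 571 without. The part of leukocyte and neutrophil reads in the CTC values was not tested.

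ITGB3 (ENSG00000259207, chr17:47253827-47313743), the beta chain of a vitronectin receptor with ITGAV and of the platelet fibrinogen receptor with ITGA2B, showed the opposite order without meeting the rule. It was detected in 14 of 37 CTCs (37.8%, exact 95% interval 22.5 to 55.2%). The values were 52.9 in 5541-1, 18.6 in 5542-1, 128 in 5542-8 and 24.1 in 5545-15, and between 0.792 and 17.8 in the other 10. In culture 1 read was found, in LM-1. The mouse means were 26.4, 36.7, 2.76, 3.73 and 1.68, all above the culture mean of 0.332, and the ratio of means was 43.0 with a counting interval of 7.72 to 1698 for the 1 read of the culture. Without CTC 5542-8 the mean over mice fell from 14.3 to 8.16. In mouse 5546, 6 of 9 libraries with c and 0 of 8 with s held ITGB3. Across CTCs its level went with the number of genes detected more than that of any other of the 34 common members (Spearman's ρ of 0.53). All 5 platelet marker genes with values were detected in CTCs, where their sum ranged from 0 to 77.3, and PF4, PPBP, GP9 and GP1BA were at 0 in culture. Platelet reads were found in 6 of the 14 CTCs with ITGB3 and in 6 of the 23 without, and their highest sum, in 5542-8, was in the CTC with the most ITGB3. Their part in the ITGB3 values was not tested. Exons of ITGB3 share 2266 bases with a read-through gene on the same strand, ENSG00000259753. ITGB8, a beta chain that binds latent TGF-beta with ITGAV, had mouse means of 44.4, 12.8, 6.41, 6.74 and 2.04 beside 2.06 in culture.

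**Figure D2:**
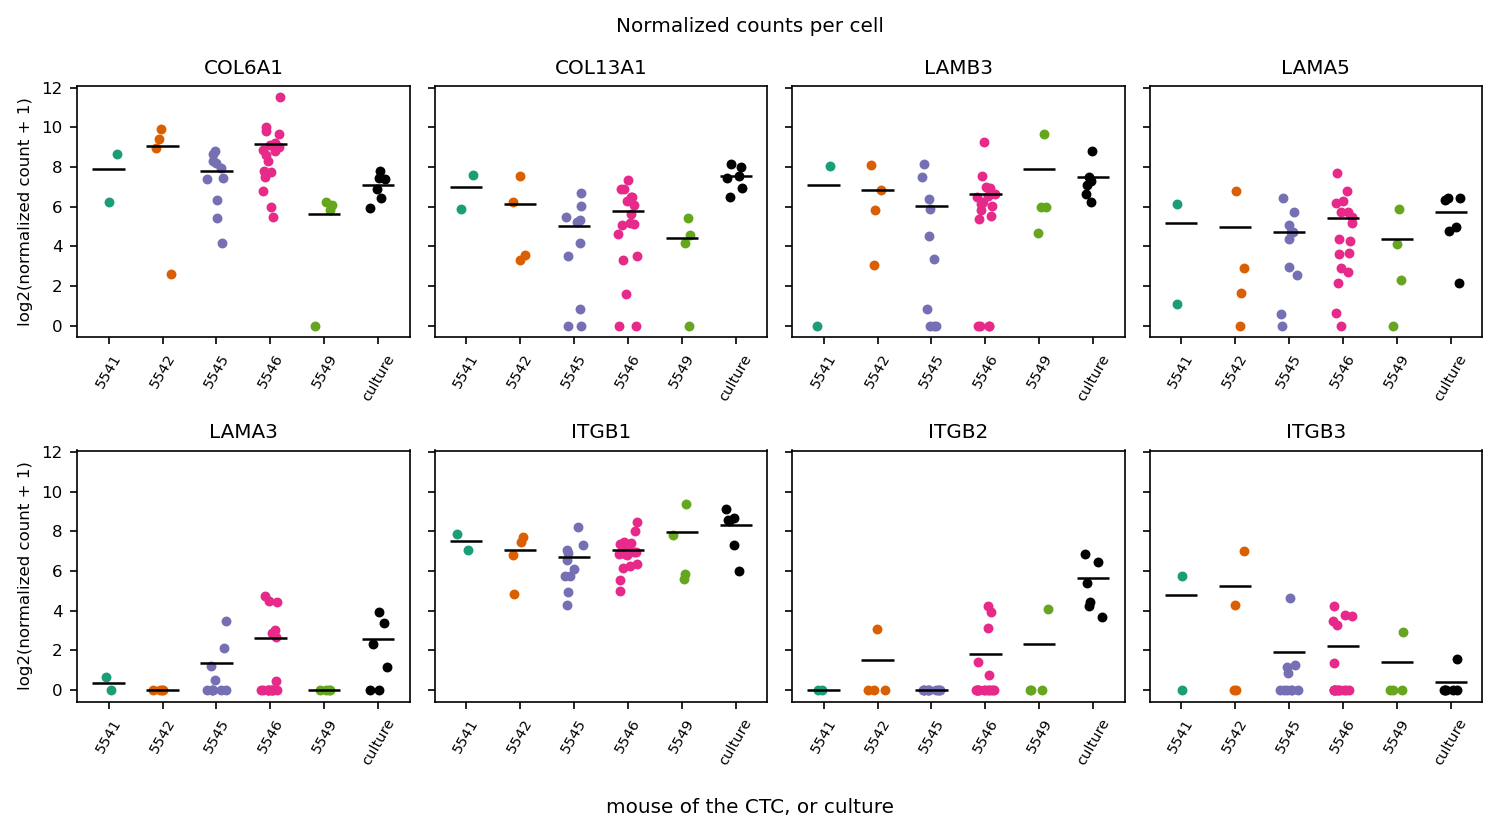
Log2(normalized count + 1) of 8 members in each CTC, by mouse, and in each cultured cell, with lines at the log2 of the group mean plus 1. ITGB2 is at 0 in all CTCs of mice 5541 and 5545 and above 0 in all 6 cultured cells, while ITGB3 is above 0 in CTCs of every mouse and in 1 cultured cell.

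The comparison with culture was read over the 28 members whose mean was at least 8 in CTCs or culture. By the rule of size, 0 of 28 were higher in CTCs, against 0.0655% of all 9164 such genes, and 1 of 28, ITGB2, was lower, against 5.31%. The members lay above the bulk of the genes, with a median log2 ratio of -0.17 beside -1.20 for all genes, and 20 of 28 lay above the median of all genes. The median was -0.08 for 9 collagens, -0.60 for 6 laminins and 0.03 for 13 integrins, and with CPM 0.45, 0.06 and 0.84. In direction alone, all 5 mouse means lay above culture for 1 of 28 members, ITGB3, against 1.04% of all genes, and below it for 11 of 28, against 60.3%. With CPM, 4 of the same 28 lay above in all mice (COL4A2, ITGA3, ITGB3 and ITGB8), against 4.88% of the genes with a mean of at least 8 CPM, and 4 lay below (COL7A1, COL8A1, COL12A1 and ITGB2), against 34.7%, where COL7A1 itself had a mean under 8 CPM. COL13A1, LAMA5, LAMC1, ITGA5, ITGAE, ITGB1 and ITGB4 thus lay below culture in all mice only on the scale of size factors.

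**Figure D3:**
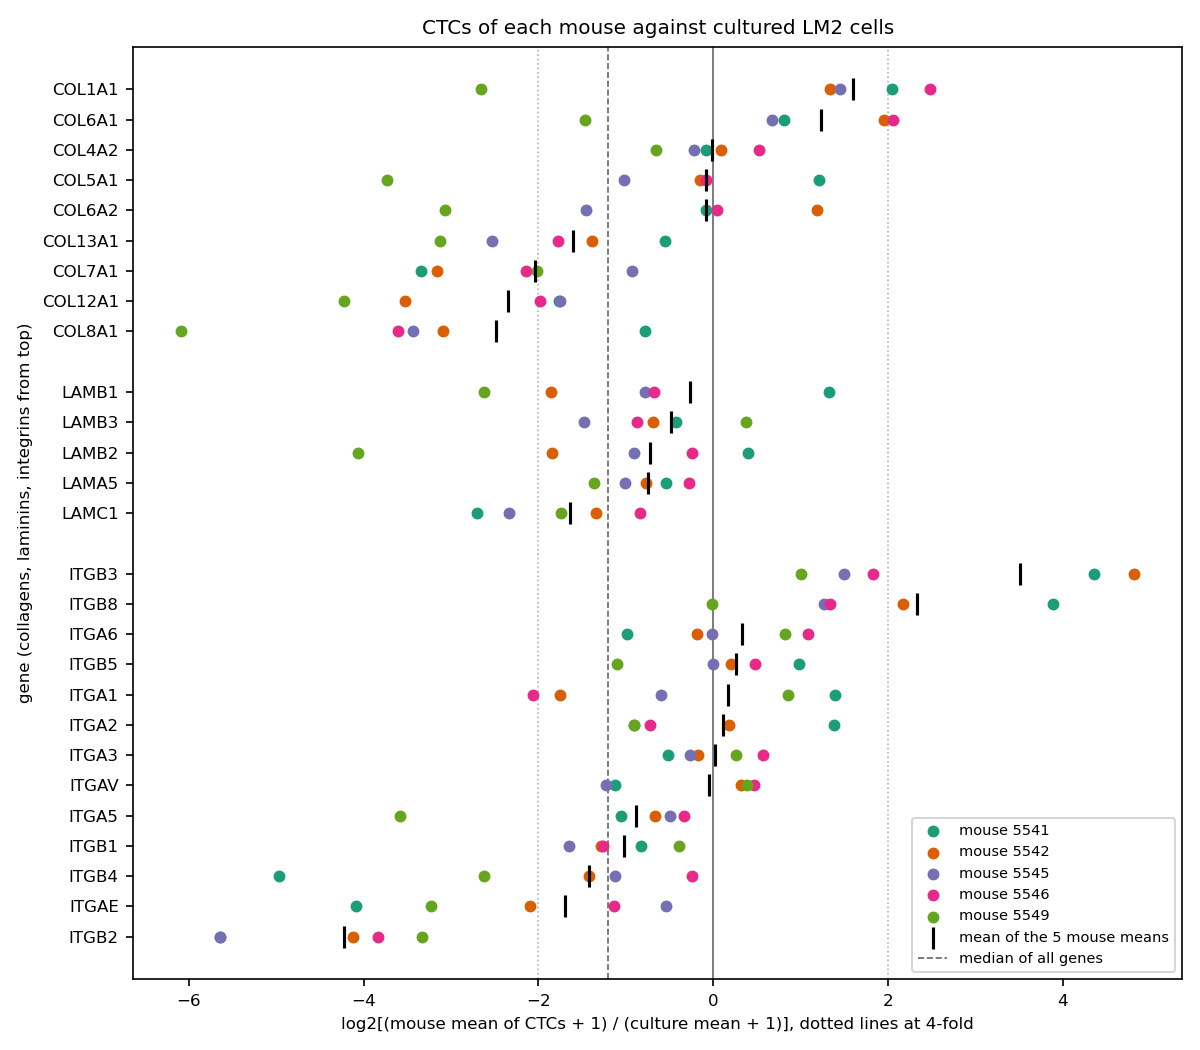
Log2 ratio of the mean of the CTCs of each mouse (colored points) and of the mean over 5 mice (black bars) to the mean of 6 cultured cells, after 1 was added to each, for 27 of the 28 members with a mean of at least 8. The dashed line marks the median of all genes at -1.20 and the dotted lines 4-fold, and ITGB2 is the one member with all 5 points beyond a dotted line.

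Of the 43 members that could be tested with edgeR (quasi-likelihood, reads pooled by mouse and over the culture), none was called. This test assumes that the lone culture varies as the mice do. It called 0% of 13813 genes at an adjusted p below 0.05 (0 genes, with a smallest adjusted p of 0.157 and 241 genes at an unadjusted p below 0.05), while DESeq2 called 15 genes, none of them a member. At an unadjusted p below 0.05, 2 members were higher in CTCs, against 1.01% of genes, and 0 were lower, against 0.731%. The 2 were COL6A1, with an edgeR log2 fold change of 2.47 ± 1.11 (SE) and an unadjusted p of 0.0451, and ITGB3, with 6.99 ± 2.94 (SE) and 0.0349, and both had an adjusted p of 1.00. ITGB2 had an edgeR log2 fold change of -3.38 ± 2.07 (SE) and likewise did not pass.

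Whether the chains that build 1 protein were found in the same cell was asked of the 35 chain sets whose members all had values. A set was complete in a cell when every chain was detected, which says nothing of the protein, and sets that share a chain are not independent. Of 19 integrin pairs, 10 were complete in at least 30% of CTCs. ITGB1 was detected in all 37 CTCs, so a pair with ITGB1 was complete wherever its alpha chain was detected and tells nothing beyond that. ITGA3 with ITGB1 was complete in 36 of 37 CTCs (97.3%, exact 95% interval 85.8 to 99.9%) and ITGA6 with ITGB1 in 33 (89.2%). ITGA2 with ITGB1, a collagen receptor, was complete in 29 and ITGA5 with ITGB1, the main fibronectin receptor, in 27. ITGA6 with ITGB4 was complete in 28 CTCs and in 5 of 6 cultured cells. ITGAV was detected with ITGB1 in 22 CTCs, with ITGB5 in 18, with ITGB8 in 12 and with ITGB3 in 11. ITGA10 with ITGB1 was complete in 13 CTCs and no cultured cell. At 30% or more also stood ITGA1 with ITGB1, in 14 CTCs. Out of 7 alpha chains that pair with ITGB1, a CTC held between 1 and 7, with a median of 5.

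Laminin sets, which need 3 chains, were complete in fewer CTCs than the leading ITGB1 pairs, which rested on the alpha chain alone. Of 11 laminins, 3 were complete in at least 30% of CTCs, laminin-521 in 21 (56.8%, exact 95% interval 39.5 to 72.9%), laminin-511 in 16 (43.2%) and the laminin of LAMA4, LAMB2 and LAMC1 in 12 (32.4%). LAMA3 with LAMB1 and LAMC1 was complete in 8 CTCs (21.6%, exact 95% interval 9.83 to 38.2%) and in 4 of 6 cultured cells, as was LAMA3 with LAMB2 and LAMC1.

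Of 5 collagen sets, type VI was complete in 17 CTCs (45.9%, exact 95% interval 29.5 to 63.1%) and type IV with COL4A1 and COL4A2 in 13 (35.1%). The type I set of both COL1A1 and COL1A2 was complete in 4 CTCs, since COL1A2 was detected in 4 of the 29 CTCs with COL1A1, and in 1 of the 4 cultured cells with COL1A1. COL4A1 was present in 13 of the 27 CTCs with COL4A2. Type VIII, of COL8A1 and COL8A2, was complete in 1 CTC and type IX in none. Type VI was complete in no CTC of mouse 5541, and 9 of the 17 complete CTCs came from mouse 5546.

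**Figure D4:**
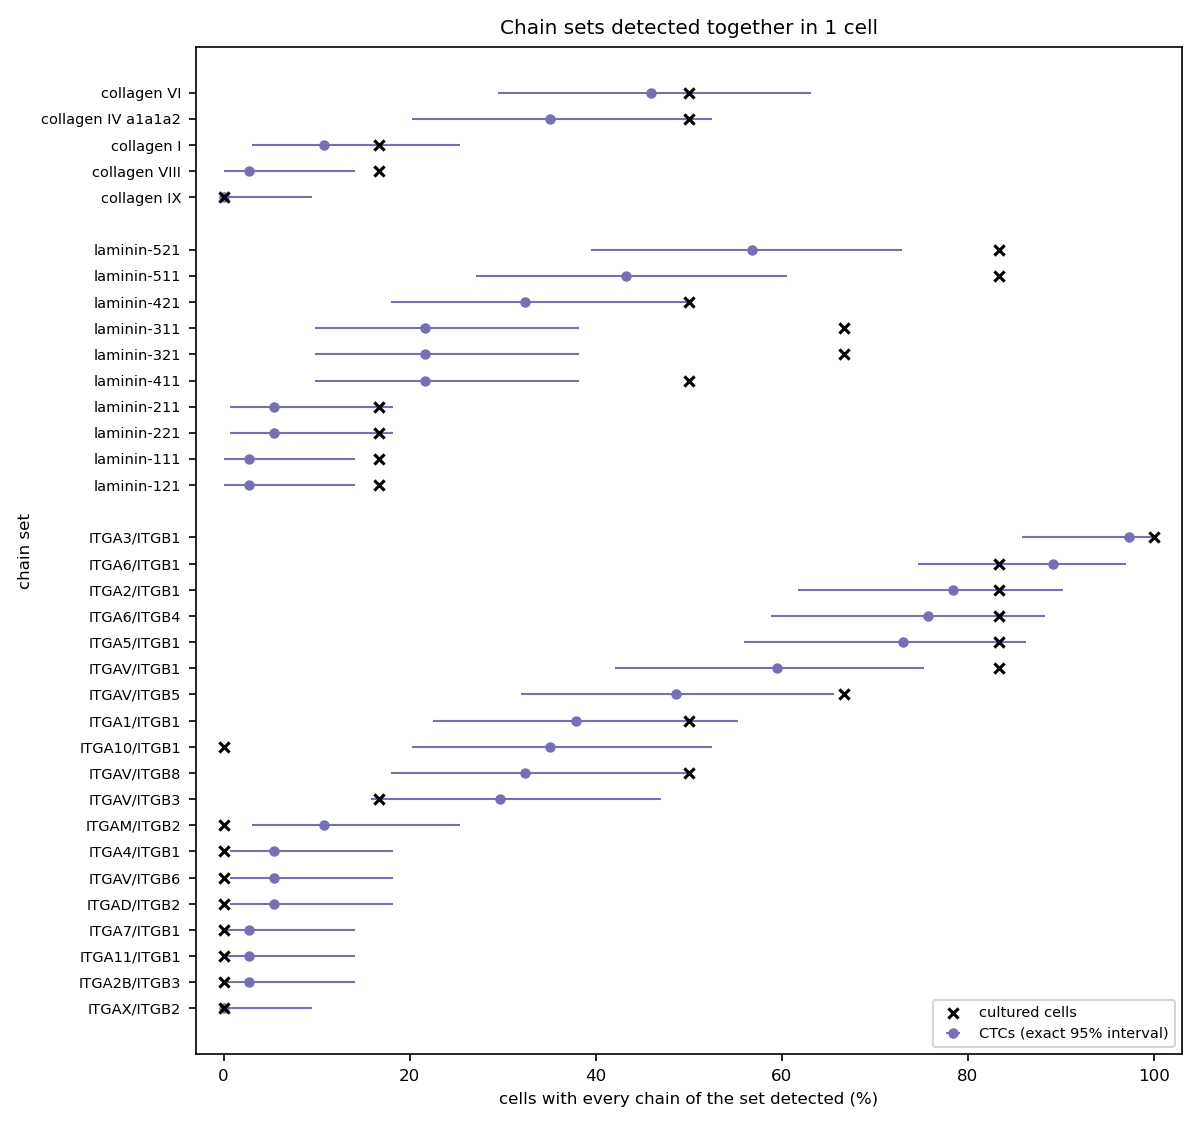
For 34 of the 35 sets, share of the 37 CTCs (points with exact 95% intervals) and of the 6 cultured cells (crosses) in which every chain of a collagen, laminin or integrin set was detected. Integrin pairs with ITGB1, itself detected in every CTC, reach up to 97.3% of CTCs, and laminin-521 lies highest of the laminins at 56.8%.

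Levels of partner chains were compared over the 37 CTCs as a description, since the CTCs share mice, libraries and depth. The 29 partner pairs among the common members had a median Spearman's ρ of 0.23, beside 0.15 for all 561 pairs of these members, and 25 of the 29 (86.2%) were positive beside 453 of the 561 (80.7%). COL6A1 and COL6A2 had the highest ρ of the partners, 0.57. It was 0.64 in the 17 CTCs of mouse 5546 and -0.20 in the 10 of mouse 5545, and 0.71 over the 29 CTCs without the libraries with s. ITGAV and ITGB5 had a ρ of 0.43, with 0.46 in mouse 5545 and 0.48 in mouse 5546. ITGB1 had a ρ of 0.36 with ITGA6, 0.31 with ITGA2 and 0.20 with ITGA3. LAMA3 had a ρ of 0.47 with LAMB1, with 0.74 in mouse 5545 and 0.24 in mouse 5546, and of -0.06 with LAMB3. ITGA6 and ITGB4, the pair of hemidesmosomes, had a ρ of 0.08.

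**Figure D5:**
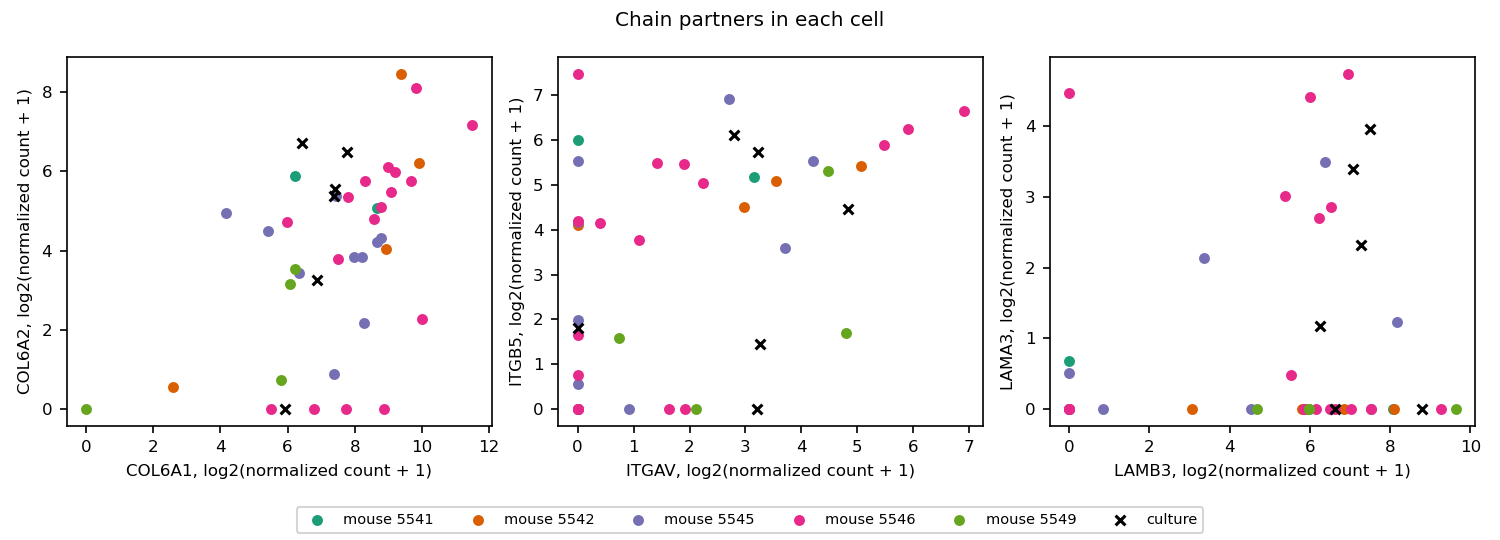
Log2(normalized count + 1) of partner chains in each CTC, colored by mouse, and in cultured cells (crosses). COL6A1 and COL6A2 go up together (ρ = 0.57 over 37 CTCs), as do ITGAV and ITGB5 (ρ = 0.43), while LAMB3 and LAMA3 show no such trend (ρ = -0.06).

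Several rare collagens came mostly from a single CTC. Of the 48 members with at least 10 reads over the CTCs, 10 had more than 50% of their summed level in 1 CTC, of which 9 are collagens and 1 is a laminin, and none had a mean of 8. The share among all genes with as many reads was not taken, so the count is not read as a trait of these families. COL9A2, a chain of cartilage type IX collagen, had 80.6% of its level in 5546-s5, with 128 normalized counts, and COL9A3 had 87.2% in 5546-s9. CTC 5546-c8, the highest for COL6A1, held 98.3% of COL9A1 and 100% of COL4A3, a type IV chain of kidney basement membranes. COL4A5 had 94.3% of its level in 5542-1, with 32.9 normalized counts. LAMA2, the alpha chain of muscle laminins, had 93.2% in 5549-6, with 79.9 normalized counts.

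Genes that make, bind or cut these proteins were read from 5 lists, none of whose genes met the rule of size in either direction or passed the edgeR test. Of 25 genes for collagen processing, 18 had a mean of at least 8. Of these, 1 lay above culture in all 5 mice and 10 below, against 1.04% and 60.3% of all genes. The 1 above was COLGALT2, at 7.09 in culture, whose mean in mouse 5546 fell from 9.69 to 0.255 without CTC 5546-s4. With CPM, 1 lay above and 4 below, against 4.88% and 34.7%. These shares of all genes also apply to the lists that follow. P4HB, a subunit of the enzyme that hydroxylates prolines, averaged 413 ± 437 in CTCs (215 without CTC 5542-4) and 818 in culture, and PPIB, a prolyl isomerase of the endoplasmic reticulum, averaged 401 ± 161 and 419. Among other integrin ligands, 6 of 11 had such a mean, 1 above and 3 below culture in all mice (0 below with CPM), with CCN1 at 1915 ± 1347 and 4350 and FN1, which encodes fibronectin, at 547 ± 414 and 144. The ligand above culture in all mice was TNC, at 8.83 in culture, whose mean in mouse 5549 fell from 325 to 3.70 without CTC 5549-6. FN1 averaged 12.4 in mouse 5549 and 1142 in mouse 5546, the mice that were also lowest and highest for collagens. CTC 5546-c8 was the highest CTC for both. Without it mouse 5546 averaged 710 for FN1 and 687 for collagens, and mouse 5542 was highest for collagens. Of 22 adhesion adaptors, 18 had such a mean, 0 above and 8 below in all mice, and with CPM 2 above and 3 below, with ILK at 297 ± 180 and 529, and ACTN1, an actin crosslinker, at 219 ± 93.7 and 1469. Of 9 other receptors, 6 had such a mean, 0 above and 2 below (0 below with CPM), with RPSA at 892 ± 317 and 1482 and the hyaluronan receptor CD44 at 397 ± 254 and 535. Of 9 matrix proteases and inhibitors, 5 had such a mean, 0 above and 1 below, and with CPM 2 above and 1 below. TIMP1, an inhibitor of matrix metalloproteinases, averaged 1402 ± 1320 (798 without CTC 5541-1) and 421.4, and MMP1, a collagenase, averaged 590 ± 871 (392 without CTC 5542-4) and 182 but was detected in 5 CTCs and 3 cultured cells (all ± are SD, n = 5 mice).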

How the data were processed

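Single-cell values of 37 CTCs from 5 mice and 6 cultured LM2 cells were used, and 4 further CTC libraries were not analysed here. The signal values deposited by the authors are read counts per gene after scaling by DESeq2 (1.42.1) size factors. SMARTseq2 reads had been aligned to GRCh38 (STAR 2.7.10a, GENCODE release 38) and unique mappers counted without strand. Division by the value of 1 read in each cell gave whole reads for 100% of values (tolerance 0.001). Symbols, coordinates and canonical transcript lengths (used for values per kb) were from GENCODE release 44, which matched 25684 identifiers. The values of 1 member are not reported here. No 2 of the 903 pairs of cells held identical values.

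Cells were averaged within mice, and the 5 mouse means were compared with the culture by a rule of size (4-fold, pseudocount 1, minimum mean 8), with no test because the culture is 1 sample. Nothing in the labels gives separate cultures. Reads summed per mouse were tested in edgeR 4.0.16 (quasi-likelihood, TMM, Benjamini-Hochberg), with DESeq2 1.42.0 as alternative, in R 4.3.3. Other steps used Python 3.11.15. The rule of size and edgeR were tested on simulated data. With the dispersion seen between mice (median 1.39), edgeR recovered 0 of 200 genes changed 4-fold among 12679 and 15 of 200 changed 16-fold among 12658, so a call not made says little. The members, gene lists and tests were chosen with earlier results of these data known. Genes named are the 6 highest per kb of each family (with that exception), those that met the rule or passed edgeR, chains of leukocytes and platelets, chains of the sets described and the 2 highest of each companion list. COL7A1, COL12A1 and the members carried by 1 CTC were named after their values were seen. Alternatives covered the fold, average, pseudocount, minimum, depth by thinning, scaling, transcript length, and omission of single mice or cultured cells.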

Additional observations from a re-analysis of the deposited data

Results flagged for a closer look

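The 62 groups examined were the 5 mouse means and the 6 cultured cells of 3 family sums and 28 members. In 8 of them, 1 sample had a gap to the nearest other that was large for the range by Dixon's criterion. About 1 of 20 groups of normally distributed values would meet it. Values with zeros, and means over unequal numbers of CTCs, need not follow that distribution. The 8 are therefore not read as an excess. Mouse 5541, which gave 2 CTCs, was highest for 3 members. Its mean was 77.4 normalized counts for COL8A1, with 14.8 in the next mouse, 63.7 for LAMB1, with 15.2 in the next, and 44.4 for ITGB8, with 12.8 in the next. CTC 5541-5 carried each of these means. In culture, LM-3 stood apart for COL12A1 with 84.8 normalized counts, where the next cell had 9.95. LM-10 was lowest for LAMB1 at 1.72, where the next cell had 26.0, and highest for LAMB3 at 440, where the next had 181. LM-P4 was highest for ITGAV at 27.4, with 8.62 in the next cell, and LM-1 was the single cultured cell with ITGB3, at 1.99.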

How the results depend on the processing

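ITGB2 met the rule of size under all 20 alternatives, with a mean log2 ratio from -6.07 to -4.06. Of these, a 2-fold rule, a smaller pseudocount, no minimum mean, and omission of a mouse or the highest CTC could not undo the call. At 2-fold, 1 member was higher (ITGB3) and 2 were lower (ITGB2 and COL12A1), and ITGB3 was also higher with a pseudocount of 0.1. Leaving out a mouse or a cultured cell gave 1 to 2 lower members and 0 higher, with COL8A1 added without mouse 5541, COL7A1 without mouse 5545 and COL12A1 without cultured cell LM-10. Over all genes, 6 were higher and 487 lower by the rule, against 24 and 2298 at 2-fold, 2 and 1357 with medians, 12 and 137 on the CPM scale and 3 and 1374 without the highest CTC of each gene. The lower genes were 1305 with means of log2 values, and the higher ones 17 with a pseudocount of 0.1. Without 1 mouse or cultured cell the higher genes ranged from 5 to 13 and the lower from 397 to 757, with 757 lower without mouse 5545, and 13, 12 and 10 higher without mice 5541, 5546 and 5549. No member was called by edgeR or DESeq2 under any of 16 alternatives, while over all genes DESeq2 called 14 higher and 1 lower, edgeR without a filter 20 and 7, and edgeR without mouse 5545 1 higher, for a range of 0 to 1 when a mouse or cell was left out. The summed collagen ratio turned from -0.14 to 0.20 per kb of exon union, 0.52 on the CPM scale and 0.12 without mouse 5549 (-0.36 to 0.12 over mice and cells left out). Without its highest member, COL6A1, it was -1.07. Without CTC 5541-5 the means over mice fell from 22.9 to 8.34 for COL8A1, from 20.5 to 9.40 for LAMB1 and from 14.5 to 5.60 for ITGB8. These single CTCs were chosen after seeing the data. The summed laminin and integrin ratios turned to 0.38 and 0.22 on the CPM scale. With a minimum of 8 normalized counts for detection, 7 collagens and 8 integrins were detected in at least 30% of CTCs, and 5 integrin pairs, 1 laminin and 1 collagen set were complete. With at least 50 reads, 4 members were carried by 1 CTC. The causes were not tested, except that stricter minimums leave fewer values. Where a gene has few reads per cell, presence in a CTC cannot be told from depth. Replicate numbers are not shared between CTCs and culture. No paired analysis was possible because no CTC is matched to a cultured cell.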
